A study of Homo sapiens with 12 samples.

Results

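Transcripts of 10 enzyme genes were examined in human colon cancer cells: the aldo-keto reductases AKR1C1, AKR1C2, AKR1C3, AKR1B1 and AKR1B10 and the aldehyde dehydrogenases ALDH1A1, ALDH1A3, ALDH3A1, ALDH3A2 and ALDH2. The genes were chosen by name and family, with earlier results of these data known, and they are 10 of the 60617 genes in the deposited tables. The cells were HCT 116p53-/-, a human colon carcinoma line whose p53 gene has been deleted, and a sub-line of it that the labels describe as an RPL3 KO (a knockout of the gene of the ribosomal protein uL3) and that the methods describe as stably silenced for uL3; how many clones the sub-line holds is not given. Both lines therefore lack p53, and each was grown with vehicle or with actinomycin D (Act D), an inhibitor of ribosomal RNA synthesis, at 5 nM for 24 h, in 3 libraries per group, so that 12 libraries in 4 groups were compared. The labels call the libraries biological replicates and do not say whether they came from separate cultures, so that the p-values measure the spread between these libraries, which may be technical.

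Aldo-keto reductases use NADPH to reduce aldehydes and ketones to alcohols, and aldehyde dehydrogenases use NAD or NADP to oxidise aldehydes to acids, so that both families clear reactive aldehydes by opposite chemistry. Members of the AKR1C group also act on steroid hormones and prostaglandins, and those of the ALDH1A group make retinoic acid from retinal. In colon tumours, ALDH1A enzyme activity is used as a marker of stem-like cells, and several AKR1C and AKR1B genes are known targets of the oxidative stress factor NRF2.

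AKR1C1, AKR1C2 and AKR1C3 lie next to each other on chromosome 10 of hg38, at chr10:4963253-4983283 on the plus strand, chr10:4987775-5018031 on the minus strand and chr10:5035354-5107686 on the plus strand. They are close copies, and the coding sequences of their main GENCODE transcripts have the same length of 972 bases. AKR1C1 and AKR1C2 were identical at 953 of these bases (98.0%), with a longest identical stretch of 189 bases, whereas AKR1C3 matched AKR1C1 at 889 (91.5%) and AKR1C2 at 885 (91.0%). RSEM has to divide reads from identical stretches between the genes, and only reads over differing bases tell them apart. The stretch of 90 coding bases with the most differences between AKR1C1 and AKR1C2, bases 73 to 162 counted from the start codon, is shown to give the density of such bases. Capitals in AKR1C2 and AKR1C3 mark bases that differ from AKR1C1 (10 and 11 bases), and capitals in AKR1C1 mark the 19 positions at which the 3 genes are not all alike.
AKR1C1: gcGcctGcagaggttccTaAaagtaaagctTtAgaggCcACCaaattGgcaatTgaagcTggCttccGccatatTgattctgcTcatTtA
AKR1C2: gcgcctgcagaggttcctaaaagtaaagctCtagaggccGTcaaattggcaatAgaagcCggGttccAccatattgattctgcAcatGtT
AKR1C3: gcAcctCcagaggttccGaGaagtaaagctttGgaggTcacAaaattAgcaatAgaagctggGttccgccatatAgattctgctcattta

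The likeness of AKR1C1 and AKR1C2 extends to the sequence before their start sites. RefSeq promoter windows on GRCh38.p14 were found for 7 of the 10 genes, and those of AKR1B10, ALDH3A1 and ALDH2 are not shown. Each window ends at the start of the main GENCODE transcript, which can lie inside the outer bounds given for a gene. The 250 bases before this start of AKR1C1 (chr10:4963165-4963414, plus strand) and of AKR1C2 (chr10:5003858-5004107, minus strand) were identical at 245 of 246 aligned bases (99.6%), and both are printed because the levels of the 2 genes, given later, were not alike. Capitals mark the aligned base that differs.
AKR1C1: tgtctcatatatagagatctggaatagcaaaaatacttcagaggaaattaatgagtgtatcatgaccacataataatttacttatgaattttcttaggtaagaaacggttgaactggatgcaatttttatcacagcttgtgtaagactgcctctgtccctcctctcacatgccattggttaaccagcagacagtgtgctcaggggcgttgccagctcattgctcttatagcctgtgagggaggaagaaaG
AKR1C2: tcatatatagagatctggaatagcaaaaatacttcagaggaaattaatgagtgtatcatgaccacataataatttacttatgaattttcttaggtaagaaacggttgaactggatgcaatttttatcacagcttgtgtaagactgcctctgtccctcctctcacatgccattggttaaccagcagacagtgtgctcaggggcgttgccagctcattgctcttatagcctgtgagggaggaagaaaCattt

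The window of AKR1C3 was 73.6% identical to that of AKR1C1. CG dinucleotides were rare in these windows, with 2 in AKR1C1, 2 in AKR1C2 and 0 in AKR1C3, against a median of 11 in 34788 windows of the same length. They were frequent in the windows of AKR1B1 (28) and ALDH1A3 (38), the most abundant gene of the 10 in the libraries labelled RPL3 KO and in HCT 116p53-/- cells respectively. These are printed with each CG in capitals, AKR1B1 from chr7:134459101-134459350 on the minus strand and ALDH1A3 from chr15:100879581-100879830 on the plus strand.
AKR1B1: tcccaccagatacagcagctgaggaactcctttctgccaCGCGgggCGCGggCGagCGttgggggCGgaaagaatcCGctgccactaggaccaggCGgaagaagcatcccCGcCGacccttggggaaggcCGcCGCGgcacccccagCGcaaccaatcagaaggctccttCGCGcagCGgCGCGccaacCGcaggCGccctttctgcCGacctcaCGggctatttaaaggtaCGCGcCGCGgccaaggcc
ALDH1A3: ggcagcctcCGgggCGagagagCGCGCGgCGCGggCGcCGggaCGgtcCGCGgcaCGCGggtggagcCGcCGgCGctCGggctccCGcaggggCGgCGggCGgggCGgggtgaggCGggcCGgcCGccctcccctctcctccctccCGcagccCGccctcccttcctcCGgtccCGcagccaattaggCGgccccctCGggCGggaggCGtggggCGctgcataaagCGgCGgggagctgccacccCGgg

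Each of the 7 windows held the letters CCAAT once on either strand, as did 32.0% of all windows at least once. None held TGACNNNGC, the core of the element that NRF2 binds (10.9% of all windows, both strands), and none held TATAAA (10.8%). A match is a description of the letters only.

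Before the results, the labels were checked. RPL3 itself was at 1136 ± 15.2 CPM (counts scaled to a common library size, SD, n = 3) in HCT 116p53-/- cells and, in the vehicle-treated libraries labelled RPL3 KO, at 1241 ± 82.5 CPM (SD, n = 3), with no difference past the threshold (log2 difference 0.13, adjusted p = 0.155, edgeR quasi-likelihood test; -0.11, adjusted p = 0.299, when scaled by library size alone). The lines also differed in markers of cell type. The summed level of 12 mesenchymal markers was 53.98 to 63.7 CPM with vehicle in HCT 116p53-/- libraries and 2545 to 2628 CPM in those labelled RPL3 KO, led by VIM (21.9 ± 3.38 against 2234 ± 30.8 CPM) and FN1 (22.6 ± 1.81 against 248 ± 11.2 CPM). VIM alone made up most of the latter sum, and the list did not move as one. Among its 9 markers tested with vehicle, 6 were called higher and 2 lower in the libraries labelled RPL3 KO, beside 35.1% and 36.2% of all genes. Among the 7 colon epithelial markers tested, 1 was called higher and 6 lower. The 12 colon epithelial markers summed to 2476 to 2678 and 1589 to 1782 CPM; KRT8 was at 1115 ± 67.6 and 776 ± 54.4 CPM, KRT18 at 604 ± 25.3 and 839 ± 51.4 CPM, and the defining markers CDH1 and CDX2, picked after their values were seen, were at 66.7 ± 2.33 and 14.8 ± 0.581 CPM in HCT 116p53-/- cells and at 0.444 ± 0.271 and 0.177 ± 0.0860 CPM in the libraries labelled RPL3 KO. Lung epithelial markers (AGER highest, FOXJ1 next) summed to at most 3.61 CPM, hepatocyte markers (TF, SERPINA1) to at most 7.07 CPM in any library. The 8 leukocyte markers summed to 8.44 to 12.5 CPM with vehicle in HCT 116p53-/- libraries and 25.8 to 35.7 CPM in those labelled RPL3 KO, without overlap, and both that were tested were called higher, CD68 (9.28 ± 2.12 against 24.8 ± 4.24 CPM) and LYZ (0.955 ± 0.408 against 6.35 ± 1.19 CPM). An effect of RPL3 and any other difference between the lines cannot be told apart in this design, and the part of these markers in the results on the lines was not tested. In bulk RNA, fewer cells of a type and less RNA per cell cannot be told apart either. Total expected counts were between 10087925 and 21138886 per library, at which 3 counts, used as the floor of detection, correspond to 0.150 to 0.347 CPM; the floor covers counting error only.

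The first question was how the enzymes differed between the lines. With vehicle, AKR1C1, AKR1C3, AKR1B1, AKR1B10 and ALDH3A1 were higher in the libraries labelled RPL3 KO, ALDH1A3 was far lower and ALDH3A2 slightly lower. Thus 7 of the 9 genes tested passed an adjusted p of 0.05, 5 up and 2 down, where 71.3% of all 15692 genes tested did (35.1% up and 36.2% down), so that the share called was near that of all genes. With Act D 6 of 9 passed, 4 up and 2 down, against 70.4% of all genes (35.1% up and 35.3% down). The groups compared did not overlap for 7 of the 9 genes with vehicle and for 6 of the 9 with Act D, beside 72.5% and 74.1% of all genes. The median log2 difference of the 9 genes was 1.93 with vehicle and 0.40 with Act D, beside -0.02 over all genes in both comparisons. Both medians are the values of 1 gene, AKR1B10, so that the fall between them is the fall of that gene and not of the 9 together. ALDH1A1 had too few counts for the test and is the only gene of the 10 left out of it.

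**Figure D1:**
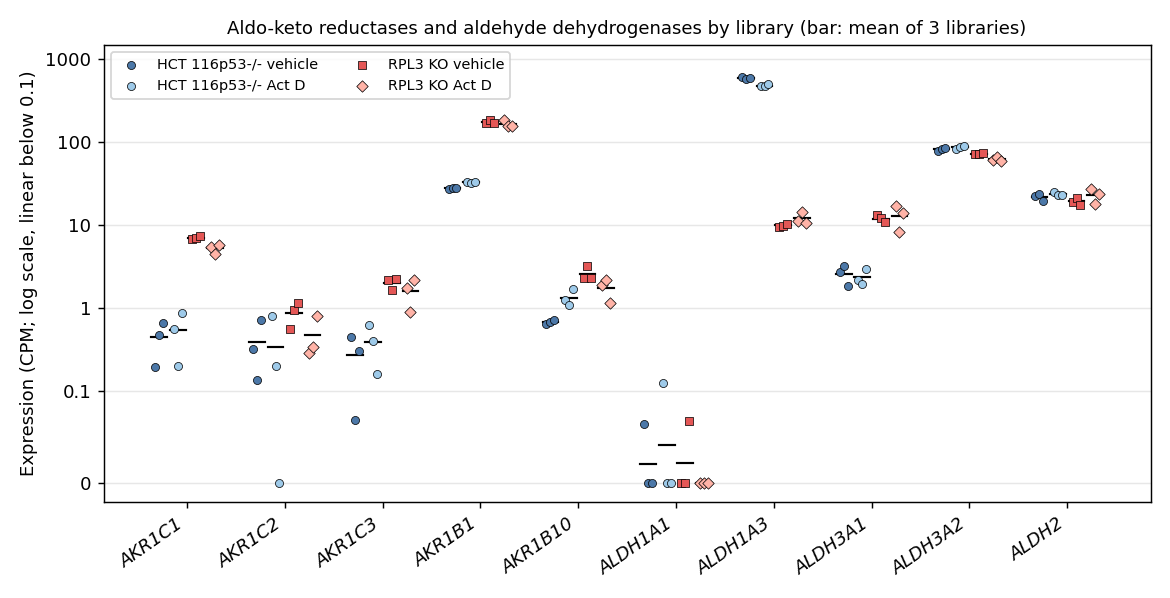
Expression of the 10 genes in each of the 12 libraries, in CPM on an axis that is logarithmic above 0.1 and linear below. Points are libraries coloured by group and bars are means of 3 libraries; ALDH1A3 lies between 470 and 619 CPM in HCT 116p53-/- libraries and between 9.62 and 14.6 CPM in those labelled RPL3 KO, while AKR1B1 lies between 27.7 and 33.6 CPM and between 156 and 188 CPM.

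AKR1C1, which inactivates progesterone by reducing it, was scarce in HCT 116p53-/- cells. It was at 0.194, 0.481 and 0.663 CPM in the vehicle-treated HCT 116p53-/- libraries, which is 3 to 11 counts, and at 0.560, 0.203 and 0.883 CPM with Act D. The libraries labelled RPL3 KO had 6.74, 6.95 and 7.42 CPM with vehicle and 5.52, 4.45 and 5.79 CPM with Act D. All libraries of the latter line were above all of the former. The mean was 15.8 times higher with vehicle (log2 difference 3.94, SE 0.35, adjusted p = 1.54e-08, edgeR quasi-likelihood test with Benjamini-Hochberg adjustment, as for every adjusted p below) and 9.57 times higher with Act D (3.28, SE 0.36, adjusted p = 2.64e-07).

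AKR1C3, which reduces androgen and prostaglandin precursors, followed the same order at lower levels. Its values were 0.453, 0.0688 and 0.301 CPM with vehicle and 0.622, 0.405 and 0.161 CPM with Act D in HCT 116p53-/- cells, against 2.17, 1.65 and 2.22 CPM and 1.74, 0.912 and 2.20 CPM in the libraries labelled RPL3 KO. The lines did not overlap in either treatment. The log2 difference was 2.81 with vehicle (SE 0.51, adjusted p = 9.09e-05) and 1.97 with Act D (SE 0.51, adjusted p = 0.00236).

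AKR1C2, which inactivates dihydrotestosterone, did not pass the test in either treatment. It was at 0.324, 0.138 and 0.723 CPM in vehicle-treated HCT 116p53-/- libraries and at 0.561, 0.949 and 1.15 CPM in those labelled RPL3 KO, and the groups overlapped. The log2 difference was 1.14 with an SE of 0.68 (adjusted p = 0.145), and with Act D it was 0.35 with an SE of 0.83 (adjusted p = 0.721). Without replicate 3 of HCT 116p53-/- vehicle the former was 1.90, and without replicate 1 of HCT 116p53-/- Act D the latter was 1.99; neither passed. AKR1C2 had 19 or fewer counts in every library, and the part of depth in these results was not tested.

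The division of reads among the near-identical genes was examined in the counts themselves. In the vehicle-treated libraries labelled RPL3 KO, RSEM gave AKR1C1 expected counts of 83.6, 138.8 and 110.4 with posterior standard deviations of 1.5, 2.48 and 2.27, and AKR1C2 counts of 7.30, 18.8 and 17.1 with standard deviations of 1.78, 2.59 and 2.42. The posterior spread was therefore small beside the gap between the 2 genes. AKR1C1 took 68.6 to 72.7% of the counts of the 3 genes in these libraries, AKR1C3 17.5 to 23.0% and AKR1C2 6.19 to 10.6%, although the promoter windows of AKR1C1 and AKR1C2 printed earlier differ at 1 aligned base. Counts are not corrected for length, and the main transcripts of AKR1C1, AKR1C2 and AKR1C3 have 6543, 3215 and 1186 bases. In HCT 116p53-/- cells with vehicle the share of AKR1C1 ranged from 19.6 to 67.1%, on only 10 to 28 counts in all, so that no order of the 3 genes could be read there. The posterior standard deviations were not available for replicate 2 of this group, whose values were summed from transcripts.

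Because the sum of the 3 genes does not depend on this division, it was also tested as 1 feature. It was 1.12 ± 0.515 CPM (SD, n = 3) in HCT 116p53-/- cells and, in those labelled RPL3 KO, 9.95 ± 0.780 CPM (SD, n = 3) with vehicle, a difference of 3.13 on the log2 scale (SE 0.30, adjusted p = 3.99e-08). With Act D it was 1.30 ± 0.660 and 7.35 ± 1.56 CPM (log2 difference 2.46, SE 0.31, adjusted p = 1.31e-06). The genes whose profile over the 12 libraries was nearest to this sum, out of 10862 genes with a mean of at least 5 CPM, were EVA1A, HDAC9 and CGREF1, at root mean square distances of 0.31, 0.34 and 0.34 on the log2 scale.

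**Figure D2:**
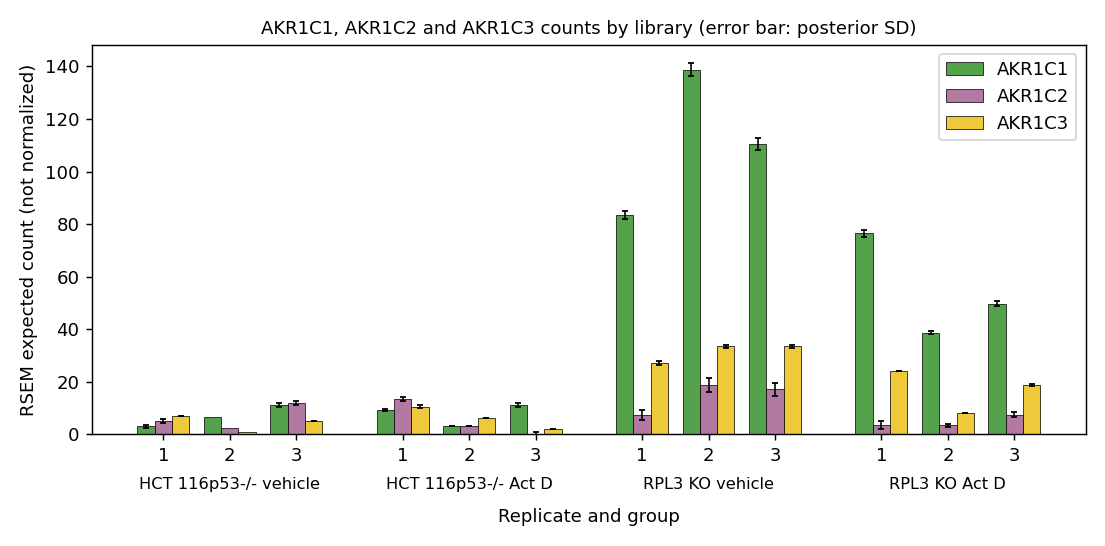
RSEM expected counts of AKR1C1, AKR1C2 and AKR1C3 in each library, not normalized, with the posterior standard deviation as error bar (none for replicate 2 of HCT 116p53-/- vehicle). AKR1C1 is the tallest bar in each of the libraries labelled RPL3 KO, at 38.7 to 138.8 counts, and no bar of the HCT 116p53-/- libraries exceeds 13.3 counts.

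AKR1B1 is aldose reductase, which turns glucose into sorbitol and reduces lipid aldehydes. It lies at chr7:134442356-134459284 on the minus strand, near AKR1B10 (chr7:134527567-134541412, plus strand). AKR1B1 was at 27.7, 28.5 and 28.3 CPM in vehicle-treated HCT 116p53-/- libraries and at 168, 188 and 169 CPM in those labelled RPL3 KO, which is 6.22 times higher (log2 difference 2.64, SE 0.09, adjusted p = 3.19e-14). With Act D it was at 33.1, 31.9 and 33.6 CPM and at 187, 156 and 158 CPM (2.35, SE 0.09, adjusted p = 1.77e-13). The distance between the lines was many times the spread between replicates in both treatments.

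AKR1B10 reduces retinal and other aldehydes and is normally a gene of the gut lining. Its coding sequence was 76.1% identical to that of AKR1B1. It was at 0.647, 0.688 and 0.723 CPM with vehicle and at 1.24, 1.08 and 1.69 CPM with Act D in HCT 116p53-/- cells, and at 2.33, 3.25 and 2.29 CPM and 1.89, 2.17 and 1.16 CPM in the libraries labelled RPL3 KO. The lines stood apart with vehicle and overlapped with Act D. The log2 difference was 1.93 with vehicle (SE 0.34, adjusted p = 6.26e-05) and 0.40 with Act D (SE 0.34, adjusted p = 0.310). In TPM, the length-scaled value of RSEM, the ratio was 1.39 with vehicle, where it was 3.82 in CPM, and with Act D the direction turned, to 0.958 (0.913 against 0.953 TPM).

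ALDH1A3 oxidises retinal to retinoic acid and was the most abundant of the 10 genes in HCT 116p53-/- cells. It lies at chr15:100877714-100916626 on the plus strand. It was at 619, 582 and 592 CPM with vehicle and at 470, 481 and 497 CPM with Act D in HCT 116p53-/- libraries. In the libraries labelled RPL3 KO it was at 9.62, 9.84 and 10.5 CPM with vehicle and at 11.4, 14.6 and 10.8 CPM with Act D. The mean was thus 59.9 times lower with vehicle (log2 difference -5.90, SE 0.11, adjusted p = 2.14e-17) and 39.4 times lower with Act D (-5.31, SE 0.11, adjusted p = 1.39e-16).

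The level of ALDH1A3 in the libraries labelled RPL3 KO was 1.67% of the HCT 116p53-/- level with vehicle and 2.54% with Act D. For 12 other genes with at least 50 CPM in HCT 116p53-/- cells in both treatments and under 0.5 CPM in the vehicle-treated libraries labelled RPL3 KO, a set looked up after the data were seen, the median share was 0.795, 0.940 and 0.125% in the 3 libraries with Act D. With vehicle these limits by themselves keep the share low, and ALDH1A3, at 9.97 CPM there, could not enter the set. Genes chosen as near absent from a line with vehicle can be expected to be low in it with Act D too. The level of ALDH1A3 is therefore not judged against these shares in either treatment. Where the shares stand beside its replicates later, their part in the result was not tested. The antisense gene ALDH1A3-AS1 overlaps ALDH1A3 and had 28 to 39 counts in the HCT 116p53-/- vehicle libraries and 2 to 10 in those labelled RPL3 KO with vehicle, beside 120 to 197 counts of ALDH1A3 in the latter; strand was not stated for the counting, so that reads of the pair cannot be told apart.

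ALDH1A1, the other retinal dehydrogenase examined, was close to absent from the counts. Of the 12 libraries, the first vehicle-treated HCT 116p53-/- library had 1 count, the first with Act D had 2 and the third vehicle-treated library labelled RPL3 KO had 1, and all others had 0. Each is below the floor of 3 counts, so that ALDH1A1 was not detectable at this depth in either line and no fold was computed. The coding sequences of ALDH1A1 and ALDH1A3 were 67.0% identical.

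ALDH3A1, which oxidises aromatic and lipid aldehydes and is abundant in the cornea, lies at chr17:19737984-19748943 on the minus strand. It was at 2.72, 3.23 and 1.87 CPM in vehicle-treated HCT 116p53-/- libraries and at 13.2, 12.1 and 10.9 CPM in those labelled RPL3 KO (log2 difference 2.21, SE 0.25, adjusted p = 3.10e-07). With Act D it was at 2.18, 1.96 and 2.97 CPM and at 17.2, 8.21 and 13.9 CPM (2.50, SE 0.26, adjusted p = 1.16e-07). All libraries labelled RPL3 KO were above all of the parental line, although those with Act D were widely spread.

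ALDH3A2, the fatty aldehyde dehydrogenase, is the neighbour of ALDH3A1 at chr17:19648136-19685760 on the plus strand, and it did not share that difference. It was at 79.5, 82.6 and 86.1 CPM with vehicle and at 83.1, 88.6 and 89.9 CPM with Act D in HCT 116p53-/- libraries, and at 73.1, 71.9 and 73.5 CPM and 61.0, 67.2 and 60.1 CPM in those labelled RPL3 KO. The lines did not overlap, at means of 82.8 and 72.8 CPM with vehicle (log2 difference -0.18, SE 0.08, adjusted p = 0.0396). In TPM the gap was wider, at 23.1 against 13.1 with vehicle (0.564 times, where it was 0.880 times in CPM). That call was lost in 5 of the 6 fits that left out a library (replicate 2 or 3 of HCT 116p53-/- vehicle or any of the 3 labelled RPL3 KO with vehicle), with an adjusted p of 0.0587 to 0.117. With Act D the log2 difference was -0.48 (SE 0.08, adjusted p = 3.26e-05). The genes nearest to its profile over the 12 libraries were SF1, NCBP3 and B3GALNT2, each at a root mean square distance of 0.07 on the log2 scale.

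ALDH2, the mitochondrial enzyme that oxidises acetaldehyde, showed no difference past the threshold in the test on counts. It was at 22.6, 23.9 and 19.3 CPM in vehicle-treated HCT 116p53-/- libraries and at 19.2, 21.4 and 17.6 CPM in those labelled RPL3 KO, which overlapped (log2 difference -0.17, SE 0.13, adjusted p = 0.249). In TPM the groups did not overlap, at 5.99 to 8.95 and 4.04 to 5.75 TPM (0.645 times, where it was 0.884 times in CPM). With Act D it was at 24.8, 23.2 and 23.4 CPM and at 27.0, 18.2 and 24.1 CPM (-0.03, SE 0.13, adjusted p = 0.837). It lies at chr12:111766887-111817532 on the plus strand, and a gene without a name (ENSG00000257767) on the same strand over it had 0 to 41.2 counts per library, so that RSEM may have moved some of its reads.

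**Figure D3:**
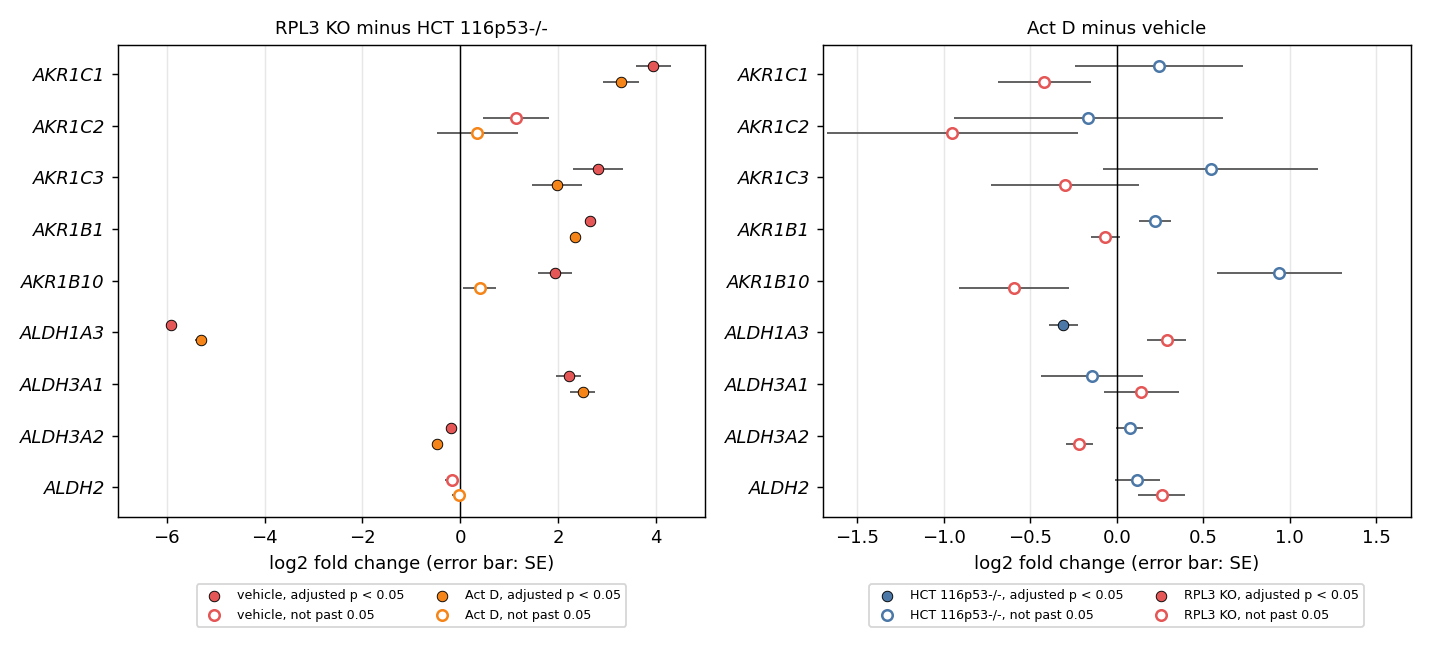
Log2 fold changes of the 9 genes tested, with standard errors. The left panel gives the libraries labelled RPL3 KO minus HCT 116p53-/- with vehicle and with Act D, and the right panel Act D minus vehicle in each line; filled points have an adjusted p under 0.05. In the left panel ALDH1A3 lies at -5.90 and -5.31 and AKR1C1 at 3.94 and 3.28, and in the right panel ALDH1A3 in HCT 116p53-/- cells is the only filled point.

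Apart from the AKR1C genes, whose counts and CPM were also set side by side, levels of the genes were compared with each other only per length, in TPM. In HCT 116p53-/- cells with vehicle the order was ALDH1A3 (mean 140.2 TPM), ALDH3A2 (23.1), AKR1B1 (18.1), ALDH2 (7.44), ALDH3A1 (1.54) and AKR1B10 (0.703), with no overlap between neighbours, followed by AKR1C1, AKR1C2 and AKR1C3 at 0.283, 0.277 and 0.243 TPM, which overlapped. In the libraries labelled RPL3 KO with vehicle AKR1B1 led at a mean of 79.6 TPM, then ALDH3A2 at 13.1 TPM. ALDH2 (4.80 TPM) and ALDH3A1 (4.57 TPM) did not differ beyond their spread. AKR1C1 (3.03 TPM) and ALDH1A3 (1.84 TPM) came next without overlap, AKR1C3 (1.08 TPM) and AKR1B10 (0.977 TPM) overlapped, and AKR1C2 stood at 0.443 TPM. The leading enzyme of the list was thus a retinal dehydrogenase in HCT 116p53-/- cells and aldose reductase in the other line. With Act D the first 4 places of both orders were the same, with ALDH1A3 at 111.7 TPM in HCT 116p53-/- cells and AKR1B1 at 72.3 TPM in the libraries labelled RPL3 KO. The 2 scales differed between the lines for all genes: the median log2 ratio of TPM, libraries labelled RPL3 KO over HCT 116p53-/-, was -0.48 with vehicle over 15464 tested genes with a value above 0 in both lines and -0.49 with Act D over 15484, against -0.02 for the fitted differences of counts. Beside that shift, with vehicle the log2 ratio of TPM was -0.83 for ALDH3A2, -0.63 for ALDH2, 0.47 for AKR1B10, 2.15 for AKR1C3 and 1.57 for ALDH3A1. With the exception of AKR1B10 with Act D, each of the 9 genes had the same direction in TPM as in CPM.

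The second question was how the enzymes responded to Act D. In HCT 116p53-/- cells ALDH1A3 fell and was the only one of the 9 genes to pass the test, where 18.7% of all genes tested did (7.59% up and 11.1% down). Its mean went from 598 ± 19.04 to 483 ± 13.4 CPM (SD, n = 3 each), and its 3 libraries with Act D were all below the 3 with vehicle (log2 change -0.31, SE 0.08, adjusted p = 0.0148). The call was lost without replicate 1 of vehicle (adjusted p = 0.0521), replicate 1 of Act D (0.0726) or replicate 2 of Act D (0.0563), while the change stayed between -0.28 and -0.30 in those fits.

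AKR1B10 and AKR1B1 also had groups that did not overlap in HCT 116p53-/- cells, as did 38.3% of all genes tested, but they missed the threshold. AKR1B10 had a mean of 0.686 ± 0.0381 CPM under vehicle and 1.34 ± 0.314 under Act D (log2 change 0.94, SE 0.36, adjusted p = 0.0804), on 10 to 21 counts per library. AKR1B1 was at 28.1 ± 0.400 and 32.8 ± 0.877 CPM (0.22, SE 0.09, adjusted p = 0.102). The other 6 genes tested had adjusted p-values from 0.550 to 0.922, with log2 changes from -0.16 (AKR1C2) to 0.54 (AKR1C3, SE 0.62).

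In the libraries labelled RPL3 KO 0 of the 9 genes passed with edgeR, where 11.9% of all genes did (3.51% up and 8.4% down). At an unadjusted p under 0.05 there were 2, ALDH3A2 and ALDH1A3, beside 3989 of all 15692 genes tested. DESeq2 called 1 of the 8 genes to which it gave an adjusted p, ALDH3A2, beside 1976 of 14215 genes. ALDH3A2 had 72.8 ± 0.862 CPM under vehicle and 62.8 ± 3.85 under Act D (log2 change -0.22, SE 0.08, adjusted p = 0.0873 by edgeR's quasi-likelihood test and 0.0387 by DESeq2). It also passed without replicate 2 of the Act D libraries (-0.29, adjusted p = 0.0425). ALDH1A3 was at 9.97 ± 0.428 and 12.3 ± 2.05 CPM (0.29, SE 0.11, adjusted p = 0.111).

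The aldo-keto reductases of these libraries were lower in mean with Act D without passing the test. AKR1C1 was at 7.03 ± 0.348 and 5.25 ± 0.710 CPM, with groups that did not overlap, as for 27.6% of all genes (log2 change -0.42, SE 0.27, adjusted p = 0.359), and the sum of AKR1C1, AKR1C2 and AKR1C3 had a log2 change of -0.44 (SE 0.25, adjusted p = 0.300). AKR1B10 was at 2.62 ± 0.542 and 1.74 ± 0.521 CPM (-0.59, SE 0.32, adjusted p = 0.263). AKR1B1 was at 175 ± 10.8 and 167 ± 17.2 CPM (-0.07, SE 0.08, adjusted p = 0.672).

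The responses of the lines were then compared directly. ALDH1A3 was the only gene of the 9 whose response differed, against 6.53% of all genes tested (3.3% upward and 3.23% downward), with a log2 difference of 0.60 between the responses (SE 0.14, adjusted p = 0.0163). Without replicate 2 of the Act D libraries labelled RPL3 KO it was 0.43 and no longer passed (adjusted p = 0.0620). That library had the highest ALDH1A3 of its group, at 14.6 CPM, and also the highest median share of HCT 116p53-/- genes, at 0.940%, and the part of the latter in the result was not tested. AKR1B10 had a mean higher with Act D in HCT 116p53-/- cells and lower in the other line, and the log2 difference between its responses was -1.53 (SE 0.48, adjusted p = 0.0672). For ALDH3A2 it was -0.29 (SE 0.11, adjusted p = 0.127) and for AKR1B1 -0.29 (SE 0.12, adjusted p = 0.182). At an unadjusted p under 0.05 there were 4 of the 9 genes, beside 3326 of all 15692 tested. The vehicle libraries of each line entered several of these comparisons, which therefore are not independent of each other.

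The rest of both enzyme families was measured in the same way. Of 9 other aldo-keto reductases 3 passed the filter, and all 3 were lower in the libraries labelled RPL3 KO with vehicle (median log2 difference -0.50, beside -0.02 over all genes, of which 71.3% were called and 36.2% lower): AKR1A1, the aldehyde reductase (36.4 ± 2.59 against 51.3 ± 2.33 CPM), AKR7A2, which reduces succinic semialdehyde (30.5 ± 1.76 against 36.9 ± 0.751 CPM), and AKR1E2 (0.123 ± 0.136 against 1.06 ± 0.445 CPM). The call of AKR7A2 was lost in 4 of 15 alternative fits. Among them were those without replicate 2 or 3 of HCT 116p53-/- vehicle or replicate 3 of RPL3 KO vehicle (adjusted p = 0.0606 to 0.107). Without the last of these replicates the log2 difference of AKR1E2 went from -2.98 to -3.94. The same 3 were lower with Act D. Of 14 other aldehyde dehydrogenases 11 were tested, and 2 were higher and 6 lower with vehicle (72.7% called, near the 71.3% of all genes, median log2 difference -0.53).

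The 2 that were higher were ALDH1L1 and ALDH1L2, the cytosolic and mitochondrial enzymes that oxidise formyl tetrahydrofolate. With vehicle, ALDH1L1 was at 19.1 ± 0.156 CPM in the libraries labelled RPL3 KO and at 0.0847 ± 0.0311 CPM in HCT 116p53-/- cells (adjusted p = 2.29e-14). No vehicle-treated HCT 116p53-/- library had more than 2 counts of it. ALDH1L2 was at 14.04 ± 1.64 against 0.365 ± 0.0224 CPM with vehicle (log2 difference 5.23, SE 0.24, adjusted p = 1.93e-12). ALDH7A1, which takes part in lysine breakdown, was 63.1 times lower, at 0.886 ± 0.300 against 55.9 ± 6.07 CPM (-5.996, SE 0.22, adjusted p = 7.48e-14). With Act D as with vehicle, these 3 had the largest differences of that list. In response to Act D, 0 of the 3 and 0 of the 11 other family members passed in either line by edgeR's quasi-likelihood test. Of all genes, 18.7% passed in HCT 116p53-/- cells and 11.9% in the libraries labelled RPL3 KO. DESeq2 called 0 too, with an adjusted p for only 2 of the reductases in the latter libraries. At an unadjusted p under 0.05 there were 0 reductases in both lines. There was 1 dehydrogenase in HCT 116p53-/- cells and there were 2 in the libraries labelled RPL3 KO, beside 4869 and 3989 of all 15692 genes tested.

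**Figure D4:**
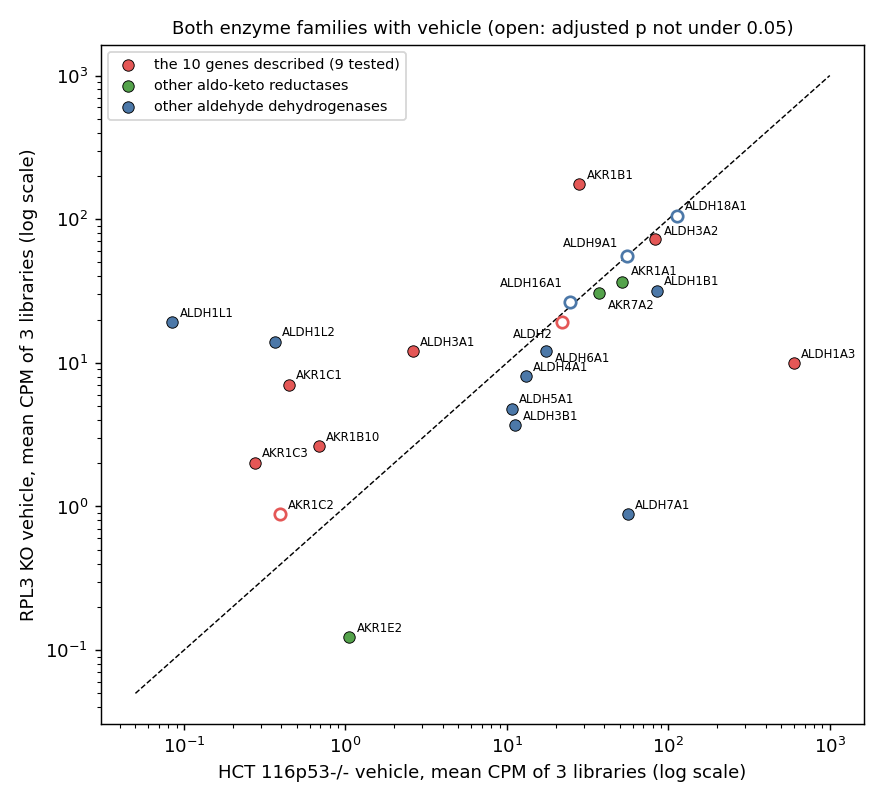
Mean CPM of the tested genes of both families in the vehicle-treated libraries, HCT 116p53-/- on the horizontal and RPL3 KO on the vertical axis, both logarithmic; the dashed line marks equal levels and open symbols an adjusted p not under 0.05. ALDH1A3 and ALDH7A1 lie far below the line at 598 against 9.97 and 55.9 against 0.886 CPM, and AKR1B1, AKR1C1 and ALDH1L1 above it.

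Genes that work on the same substrates were counted from lists. Of 22 genes that carry, oxidise or sense retinoids, 16 were tested, and with vehicle the libraries labelled RPL3 KO had 6 higher and 6 lower (12 of 16 called, beside 71.3% of all genes, median log2 difference -0.05). The largest differences were in STRA6, a retinol transporter (33.9 ± 1.22 against 1.05 ± 0.295 CPM, adjusted p = 3.28e-14), in RARB, a retinoic acid receptor (3.39 ± 0.860 against 0.0661 ± 0.0648 CPM, adjusted p = 6.02e-08), and in RBP4, a retinol carrier at 1.67 ± 0.193 CPM that had 0 counts in every HCT 116p53-/- library (adjusted p = 2.55e-06). Without replicate 1 of HCT 116p53-/- vehicle the log2 difference of RARB went from 5.53 to 6.37. These 3 genes were higher in the line in which ALDH1A3 was lower.

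Act D changed 3 of the 16 retinoid genes in HCT 116p53-/- cells (18.8%, the share found over all genes being 18.7%). RXRA, the partner receptor of retinoic acid receptors, fell from 32.8 ± 6.35 to 8.97 ± 1.18 CPM (log2 change -1.87, SE 0.15, adjusted p = 2.78e-07), and RDH10, which makes the retinal that ALDH1A enzymes use, rose from 42.0 ± 3.91 to 71.6 ± 6.09 CPM (0.77, SE 0.09, adjusted p = 1.57e-05). CYP26B1, which degrades retinoic acid, rose from 5.47 ± 0.819 to 8.27 ± 1.74 CPM (adjusted p = 0.0329). That call was lost in 5 of 15 alternative fits, among them those without replicate 2 or 3 of vehicle or replicate 1 or 2 of Act D (adjusted p = 0.0926 to 0.185). In the libraries labelled RPL3 KO the retinol dehydrogenase RDH13 was the only one of the 16 to pass, beside 11.9% of all genes, falling from 25.7 ± 3.32 to 17.0 ± 1.05 CPM (adjusted p = 0.00304). The responses of RXRA (log2 difference 1.44, adjusted p = 0.000821), RDH10 (-0.73, adjusted p = 0.00264) and RDH13 (-0.58, adjusted p = 0.0440) differed between the lines, beside 6.53% of all genes. The call of RDH13 was lost in 11 of 20 alternative fits, among them those without replicate 1 or 2 of any of the 4 groups (adjusted p = 0.0670 to 0.113).

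Of 18 other steroid enzymes 15 were tested, and with vehicle the libraries labelled RPL3 KO had 8 higher and 3 lower (73.3% called, beside 71.3% of all genes, median log2 difference 0.48). HSD17B14, which oxidises oestradiol, was at 3.52 ± 0.594 against 0.711 ± 0.121 CPM (adjusted p = 3.04e-06), HSD11B2, which inactivates cortisol, at 1.03 ± 0.0605 against 4.76 ± 1.30 CPM (adjusted p = 2.16e-06) and SULT2B1, which adds sulphate to steroids, at 0.146 ± 0.173 against 1.41 ± 0.399 CPM (adjusted p = 0.000160; log2 difference -3.17, or -4.35 without replicate 3 of the vehicle-treated libraries labelled RPL3 KO). With Act D the 3 largest included HSD17B1, which makes oestradiol, at 5.83 ± 1.38 against 0.821 ± 0.290 CPM (adjusted p = 1.03e-06). In response to Act D 0 of the 15 passed in either line by edgeR's quasi-likelihood test, beside 18.7% and 11.9% of all genes. DESeq2 called 0 too, with an adjusted p for only 14 of them in the libraries labelled RPL3 KO. At an unadjusted p under 0.05 there were 2 in HCT 116p53-/- cells and 1 in the other line, beside 4869 and 3989 of all 15692 genes tested.

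Among 13 alcohol dehydrogenases and carbonyl reductases, which share aldehyde and ketone substrates with the 10 genes, 7 were tested, and 3 were higher and 1 lower with vehicle (57.1% called, beside 71.3% of all genes). CBR1, a carbonyl reductase, was at 37.9 ± 0.644 CPM in the libraries labelled RPL3 KO and at 0.194 ± 0.113 CPM in HCT 116p53-/- cells (adjusted p = 1.47e-15). DHRS7 was at 40.4 ± 2.68 against 22.7 ± 0.484 CPM (adjusted p = 3.53e-07), and DHRS2 was lower, at 2.74 ± 0.567 against 8.78 ± 1.03 CPM (adjusted p = 3.73e-07). With Act D 2 of the 7 passed in HCT 116p53-/- cells (28.6%, beside 18.7% of all genes) and 1 in the other line (14.3%, beside 11.9%). In HCT 116p53-/- cells 1 of these was CBR1, from 0.194 ± 0.113 to only 0.725 ± 0.142 CPM (adjusted p = 0.00256). Another 15 genes had under 0.5 CPM in vehicle-treated HCT 116p53-/- cells and at least 50 CPM in both groups labelled RPL3 KO. Their median share of the latter level was 0.810, 0.743 and 0.640% in the 3 HCT 116p53-/- libraries with Act D. The part of such shares in the call of CBR1 was not tested. CBR4 rose in both lines, from 19.5 ± 1.36 to 26.8 ± 1.35 CPM (adjusted p = 0.0307) and from 20.5 ± 4.36 to 29.1 ± 4.80 CPM (adjusted p = 0.0345). The call of CBR4 was lost in 6 of 15 alternative fits in each line. In HCT 116p53-/- cells these included the fits without replicate 2 or 3 of vehicle or any replicate of Act D (adjusted p = 0.0575 to 0.106). In the other line they included those without replicate 1 or 3 of vehicle or replicate 2 or 3 of Act D (0.0607 to 0.192).

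Targets and regulators of NRF2 outside the 10 genes were counted as well. All 26 were tested, and with vehicle the libraries labelled RPL3 KO had 6 higher and 14 lower (76.9% called, beside 71.3% of all genes, median log2 difference -0.32). ABCC2, an export pump, was at 6.61 ± 0.486 against 249 ± 6.59 CPM (log2 difference -5.25, SE 0.10, adjusted p = 5.56e-17), while MAFF, a small partner protein of NRF2, was at 66.5 ± 5.04 against 12.7 ± 2.96 CPM (2.39, adjusted p = 1.20e-11) and BACH1, a repressor at the same elements, at 172 ± 21.4 against 37.2 ± 2.77 CPM (2.21, adjusted p = 1.27e-12).

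With Act D 6 of the 26 rose and 2 fell in HCT 116p53-/- cells (median log2 change 0.14), where 7.59% of all genes rose and 11.1% fell. For the libraries labelled RPL3 KO 0 rose and 8 fell (-0.14), where 3.51% and 8.4% of all genes did, beside medians of 0.02 and 0.03 over all genes. TXNRD1, thioredoxin reductase, fell in both, from 1143 ± 108 to 855 ± 67.3 CPM (adjusted p = 0.0102) and from 1030 ± 113 to 443 ± 55.6 CPM (adjusted p = 2.30e-06), the former no longer past the threshold without replicate 1 of vehicle or replicate 1 or 2 of Act D (adjusted p = 0.0541 to 0.0557). In the latter libraries GCLC, which starts glutathione synthesis, fell from 124 ± 16.7 to 68.4 ± 4.38 CPM (adjusted p = 4.18e-05) and SLC7A11, the cystine transporter, from 134 ± 9.60 to 76.7 ± 15.4 CPM (adjusted p = 0.000217). The response differed between the lines for 8 of the 26 (30.8%, beside 6.53% of all genes and 3.23% downward), all with a lower value in the libraries labelled RPL3 KO, led by KEAP1, which holds NRF2 in check (log2 difference -0.87, adjusted p = 0.00308), SRXN1 (-0.81, adjusted p = 0.00193) and TXNRD1 (-0.80, adjusted p = 0.00414).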

How the data were processed

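RNA of 12 libraries of 2 lines (4 groups of 3, from the labels) was sequenced from both ends. The authors trimmed the reads, removed ribosomal RNA and PhiX reads and ran RSEM 1.2.25 on Ensembl genes of hg38. The deposited expected counts are fractional and not normalized, the deposited TPM values are scaled by length and depth, and the posterior standard deviation of each count was deposited for 11 libraries. Vehicle replicate 2 of HCT 116p53-/- was deposited per transcript (226788 transcripts) and summed per gene. The tool of the study's own differential test is not given in the sources used here. The descriptions number the Act D libraries labelled RPL3 KO otherwise than the titles, which were used.

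Expected counts were rounded, filtered with filterByExpr by group (15692 of 33990 genes with any count, 9 of the 10 described) and scaled by TMM (factors 0.847 to 1.148). All libraries were fitted together with a coefficient per group (edgeR 4.0.16 quasi-likelihood test, R 4.3.3), adjusted by Benjamini-Hochberg over all genes tested, with a threshold of 0.05. The code was tested on simulated counts with known changes, which were made larger after a first version recovered too few of them. Small changes can therefore be missed, more so in genes with few counts. CPM uses TMM library sizes; the deposited TPM has no such scaling between libraries. Totals were 10087925 to 21138886 per library. Sequences came from RefSeq (GRCh38.p14) and GENCODE v44, which matched 60261 of 60617 identifiers, and were aligned with Biopython 1.88.

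The genes and the lists were chosen with earlier results of these data known. The text names RPL3 and, for both differences between the lines, all 10 genes. For the Act D responses and their difference, some genes that did not pass are given only as a group or left out. At most 3 genes per comparison were chosen from each family or pathway list. They had the largest log2 change among genes past the threshold and at 1 CPM or more in a group. The 2 highest genes of each marker list and the 3 nearest profiles were chosen too. Not each gene so chosen is described. CDH1, CDX2 and the 12 HCT 116p53-/- genes whose shares stand beside ALDH1A3 were chosen after the values were seen. So were the Act D response of CBR1 and the 15 genes whose shares stand beside it.

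Alternatives were DESeq2 1.42.0, library size alone, upper-quartile scaling, no filter, 1 CPM in at least 3 libraries, only the 2 groups compared, a block for the replicate number, posterior mean counts, AKR1C1-3 added into 1 feature, and each library left out.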

Additional observations from a re-analysis of the deposited data

Results flagged for a closer look

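The response of ALDH1A3 to Act D differed between the lines by a test of the difference itself. The response in the libraries labelled RPL3 KO minus that in HCT 116p53-/- cells was 0.60 on the log2 scale (SE 0.14, adjusted p = 0.0163 by edgeR's quasi-likelihood test). In HCT 116p53-/- cells the 3 libraries with Act D, at 470, 481 and 497 CPM, were all below the 3 with vehicle, at 619, 582 and 592 CPM. In the libraries labelled RPL3 KO the 3 with Act D, at 11.4, 14.6 and 10.8 CPM, were all above those with vehicle, at 9.62, 9.84 and 10.5 CPM, a change that did not pass by itself (adjusted p = 0.111). The difference did not pass without replicate 2 of the latter Act D libraries (0.43, adjusted p = 0.0620). In replicates 1, 2 and 3 of these Act D libraries, the median share of the 12 HCT 116p53-/- genes described earlier was 0.795, 0.940 and 0.125%. The replicates thus had the same order by this share as by ALDH1A3, and the part of the share in the result was not tested.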

How the results depend on the processing

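Of 765 recomputed differences of the tested genes and of the AKR1C1-3 sum (50 results), 734 kept their direction and their side of the threshold. With each library left out, the number of genes called was 0 to 1 for Act D in HCT 116p53-/- cells, 0 to 1 in the libraries labelled RPL3 KO and 0 to 1 for the difference of the responses. For Act D in the libraries labelled RPL3 KO it was 1 with DESeq2 and 1 with library size alone (ALDH3A2 in both). With library size alone the median of all genes between the lines moved to -0.26 (4202 up and 6974 down in place of 5501 and 5684 with vehicle), ALDH2 passed with vehicle (-0.41, adjusted p = 0.0198), and the Act D change of ALDH3A2 in HCT 116p53-/- cells reversed to -0.025.

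ALDH3A2 between the lines with vehicle lost its call with no filter (adjusted p = 0.191), with only the 2 groups compared (0.0805) and with the replicate block (0.0638), which changed no other call among these genes; of the list genes named in the report, the block also ended the call of RDH13 for the difference of the responses (adjusted p = 0.0821). No comparison had all 3 same-numbered pairs correlated above 0.1, so that the numbers only name the libraries; the block gave 10964 calls over all genes in place of 11185 between the lines with vehicle, and 722 in place of 1025 for the difference of the responses.

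The other reversals were of differences that had not passed, each on leaving out a library, and their cause was not tested. The values ran from -0.24 to 1.99 for AKR1C2 and from -0.17 to 0.074 for ALDH2 between the lines with Act D. For Act D in HCT 116p53-/- cells they ran from -0.20 to 0.66 for AKR1C1, from -1.81 to 0.60 for AKR1C2, from -0.34 to 0.035 for ALDH3A1 and from -0.30 to 0.66 for the AKR1C1-3 sum. In the libraries labelled RPL3 KO ALDH3A1 ran from -0.12 to 0.36, and in the difference of the responses AKR1C2 ran from -1.56 to 0.86 and ALDH2 from -0.00039 to 0.25. AKR1C2 had 0 to 19 counts per library; the part of depth was not tested. For RPL3 and the list genes named by the rule, recomputed after the data were seen, 846 of 889 differences kept direction and side of the threshold and 41 lost the call; RPL3 between the lines reversed with library size alone, to -0.11 with vehicle and -0.13 with Act D, without passing.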
